A study of Mus musculus with 64 samples.

Results

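Liver RNA from sh-Acsf3 and sh-Ctl mice was compared at ZT9, 9 h after lights on, in the late light phase. The libraries were grouped by their labels: 4 sh-Acsf3 libraries against 4 sh-Ctl libraries, 8 of the 64 in the series. The series holds 4 replicates per treatment at 8 times spaced 3 h apart. The sh-Acsf3 group was male C57BL/6J mice fed ad libitum whose livers were taken 4 weeks after injection of an AAV8 vector carrying a hairpin RNA against Acsf3. The sh-Ctl group was male C57BL/6J mice of the same feeding and timing that received the control hairpin in the same vector, so that every group carries an AAV8 vector and a hairpin. AAV8 is a virus serotype that enters hepatocytes with high efficiency, and a hairpin RNA lowers its target's transcript without deleting the gene. Transcripts were counted by BRB-seq, a bulk method that barcodes each RNA sample and counts 3′ ends with unique molecular identifiers (UMIs). The labels do not say whether each replicate is a separate animal. The p-values therefore measure the spread between replicate libraries, estimated over all 64 in the series, and this spread may be technical in part.

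Acsf3 encodes the mitochondrial acyl-CoA synthetase that makes malonyl-CoA from malonate inside the matrix, where malonyl-CoA feeds mitochondrial fatty acid synthesis and is the donor for lysine malonylation. The liver clock drives a daily wave of transcripts, in which the REV-ERB and PAR bZIP factors stand high late in the light phase while Arntl stands low. The liver holds hepatocytes together with stellate cells, which store retinoids and make matrix, with sinusoidal endothelium, with Kupffer cells and with resident lymphocytes. In bulk RNA, more cells of a type and more RNA per cell cannot be told apart.

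Totals were 1436674 to 6099825 UMIs in sh-Acsf3 and 1808021 to 3453060 UMIs in sh-Ctl, with 12867 to 15771 genes detected in sh-Acsf3 and 12856 to 14130 in sh-Ctl. Levels are CPM, UMI counts scaled to a common library total after TMM normalization, and 1 CPM is only a few UMIs in a library of this depth. The hepatocyte identity genes summed to 136300 to 163600 CPM in sh-Acsf3 and 133100 to 152000 CPM in sh-Ctl, which fits the labelled tissue. In each group a library stood apart from its replicates in a listed set of genes, and others that did so are given among the flagged results. The sh-Ctl replicate 1 library was high in the acute-phase gene Saa1, and sh-Acsf3 replicate 3 held 260.1 CPM of exocrine pancreas transcripts against 12.5 to 16.8 CPM in the other sh-Acsf3 libraries and 8.71 to 46.9 CPM in sh-Ctl. None of the 18 tested pancreas genes passed. Results that rest on these libraries are given with and without them.

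Acsf3 itself (ENSMUSG00000015016, chromosome 8, 122775486 to 122817880, plus strand, GRCm38) had 0.569, 2.12, 2.58 and 3.51 CPM in the sh-Acsf3 libraries, against 11.0, 15.0, 14.8 and 9.68 CPM in the sh-Ctl libraries. The highest sh-Acsf3 library lay below the lowest sh-Ctl library, so the labels and the target gene match in all 8. The difference was -2.57 ± 0.37 (log2, SE; edgeR quasi-likelihood test, adjusted p = 8.82e-06), it rests on 31 UMIs in sh-Acsf3 and 116 in sh-Ctl, and it passed with any single library left out. Gm20388 overlaps Acsf3 on the same strand, and reads of the pair could be shared. Across the day the sh-Acsf3 mean stayed below the sh-Ctl mean at all 8 times, as the plot of levels through the day shows.

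**Figure D1:**
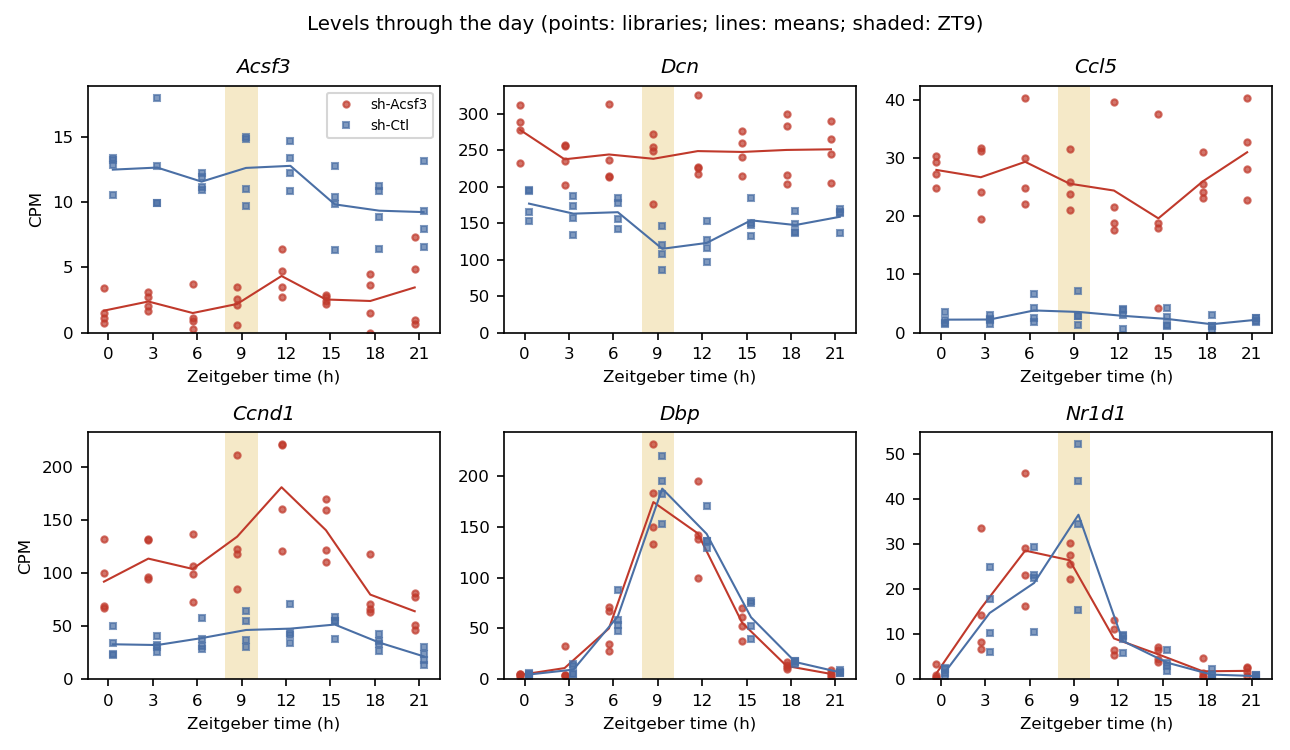
CPM of 6 genes against zeitgeber time in hours, with sh-Acsf3 as red circles and sh-Ctl as blue squares, 4 libraries per point in time, lines through the means and ZT9 shaded. Acsf3 is lower and Dcn, Ccl5 and Ccnd1 are higher in sh-Acsf3 at ZT9, while Dbp stands at its daily high in both treatments.

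Of the 22 listed genes of malonyl-CoA handling and mitochondrial fatty acid synthesis, 21 were tested and Acsf3 was the single one past the threshold. The other 20 ran from -0.89 to 0.52 (log2), and the median of the 21 was 0.05, beside -0.004 over all genes tested. Mlycd, which encodes the malonyl-CoA decarboxylase, had 79.7, 91.0, 96.1 and 114 CPM in sh-Acsf3 against 94.9, 83.8, 96.2 and 91.4 CPM in sh-Ctl, and it missed the threshold at 0.05 ± 0.14 (log2, SE; edgeR adjusted p = 0.959). Mcat, the mitochondrial malonyltransferase, averaged 16.2 ± 0.889 CPM in sh-Acsf3 and 17.6 ± 3.60 CPM in sh-Ctl (SD, n = 4 each). Ndufab1, the mitochondrial acyl carrier protein, averaged 186 ± 20.2 CPM in sh-Acsf3 and 191 ± 19.5 CPM in sh-Ctl. Sirt5, the mitochondrial demalonylase, averaged 9.94 ± 1.36 CPM in sh-Acsf3 and 8.45 ± 3.76 CPM in sh-Ctl. The groups overlapped for these 4 genes. None passed among the 26 genes, all tested, that break down propionate and the branched-chain amino acids, and the median was 0.03.

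At ZT9, 36 of 10097 tested genes (0.357%) passed an edgeR adjusted p of 0.05. Of these, 31 were higher in sh-Acsf3 (0.307% of all tested) and 5 were lower (0.0495%), and 29 differed at least 2-fold. In 31 of the 36 the groups did not overlap. Over all tested genes, 3.02% had all 4 sh-Acsf3 libraries above all 4 sh-Ctl libraries and 2.2% had all 4 below. At an unadjusted p under 0.05, 492 of the tested genes were higher in sh-Acsf3 and 401 lower. The plot of the called genes gives every library's level.

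**Figure D2:**
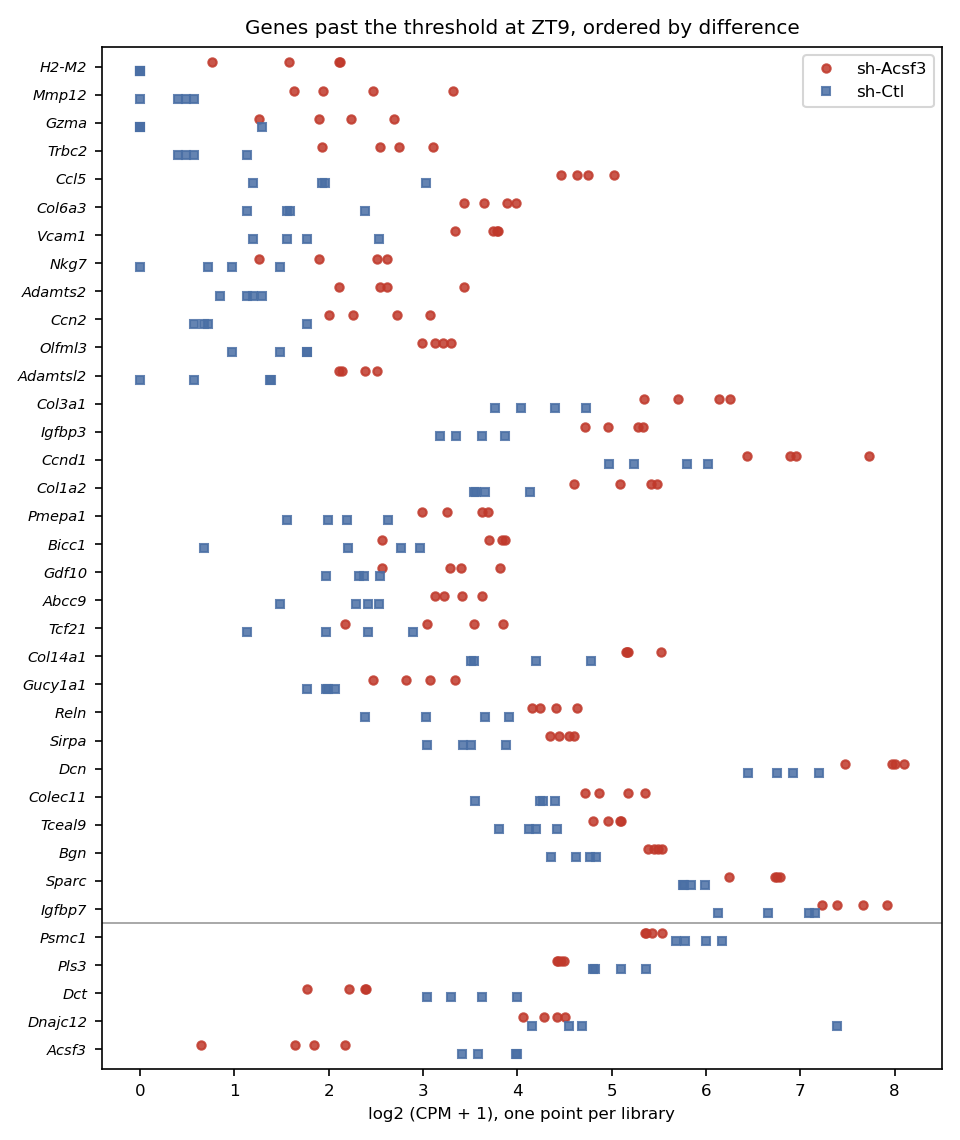
Level of each of the 36 genes past the threshold as log2 (CPM + 1), a point per library, sh-Acsf3 as red circles above sh-Ctl as blue squares in each row. Genes are ordered by their difference, and the grey line parts the 31 that rose from the 5 that fell, of which Acsf3 is at the foot.

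The most numerous listed group among the rises was stellate cell, fibroblast and matrix genes. The gene lists were chosen with earlier results of these data known, so their counts and medians are descriptions and not tests. Of 29 listed markers 27 were tested, and 9 rose, none fell and 18 did not pass, with a median of 1.11 (log2) over the tested ones. Over all tested genes 0.307% rose. The 9 were Dcn, Bgn, Sparc, Colec11, Reln, Col14a1, Col1a2, Col3a1 and Col6a3. For 14 of the 27 the sh-Acsf3 libraries all lay above the sh-Ctl libraries, against 3.02% of all tested genes. Their summed level over the whole list was 882, 704, 837 and 699.6 CPM in sh-Acsf3, against 361, 371, 460.4 and 370.1 CPM in sh-Ctl. The sh-Ctl library high in Saa1 is the 361 CPM one and the sh-Acsf3 library with pancreas transcripts the 837 CPM one, and neither lies far from its replicates in this sum. The plot of summed lists sets these beside the other cell types.

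**Figure D3:**
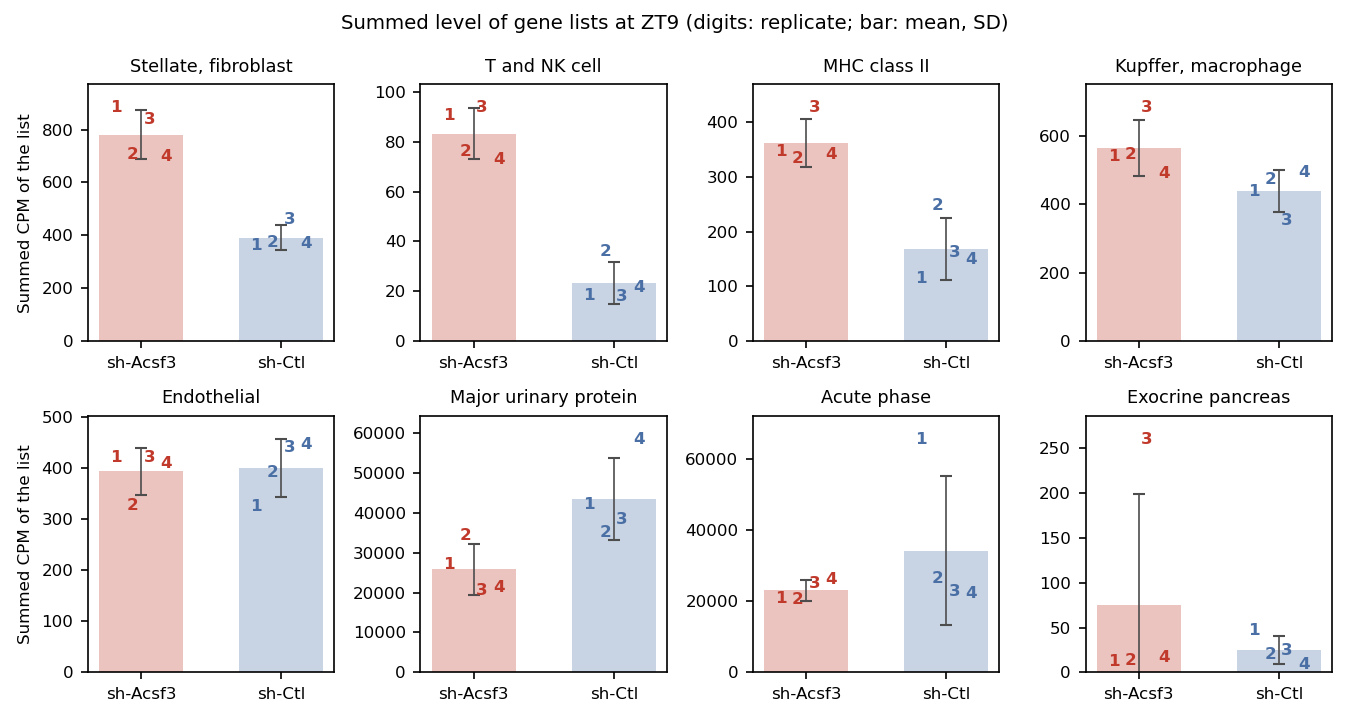
Summed CPM of 8 gene lists at ZT9, with sh-Acsf3 in red left of sh-Ctl in blue. Digits are replicate numbers, bars are group means and whiskers are SD (n = 4 each). The stellate, T and NK cell and MHC class II sums, higher in sh-Acsf3, do not overlap between groups. Nor do the major urinary protein sums, which are lower in sh-Acsf3, while the endothelial sums overlap. The sh-Ctl replicate 1 library stands alone in the acute-phase panel, as sh-Acsf3 replicate 3 does in the pancreas panel.

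The collagens illustrate the group, and the promoters of 3 of them are printed because these genes rose together. Each line holds 250 bases before and 50 after the start given by RefSeq on GRCm38.p6, read 5′ to 3′ on the gene's strand. The windows are chr6:4505368-4505667 (plus) for Col1a2, chr1:45311288-45311587 (plus) for Col3a1 and chr1:90843922-90844221 (minus) for Col6a3. Capitals mark matches, on either strand, to the CCAAT box (CCAAT), the TATA box (TATAAA), the AP-1 motif (TGANTCA) or the TEAD motif (GGAATG), no pair of which overlap here.
Col1a2: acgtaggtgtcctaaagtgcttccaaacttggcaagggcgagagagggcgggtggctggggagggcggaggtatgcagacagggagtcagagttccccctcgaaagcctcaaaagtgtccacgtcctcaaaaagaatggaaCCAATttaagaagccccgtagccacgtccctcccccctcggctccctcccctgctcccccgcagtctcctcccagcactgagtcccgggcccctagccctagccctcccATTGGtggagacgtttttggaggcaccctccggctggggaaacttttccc
Col3a1: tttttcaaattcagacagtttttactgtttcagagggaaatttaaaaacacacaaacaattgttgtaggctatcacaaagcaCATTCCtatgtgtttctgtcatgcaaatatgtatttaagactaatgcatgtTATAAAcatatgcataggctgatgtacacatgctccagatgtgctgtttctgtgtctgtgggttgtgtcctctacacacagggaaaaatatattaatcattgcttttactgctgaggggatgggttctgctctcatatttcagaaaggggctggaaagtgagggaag
Col6a3: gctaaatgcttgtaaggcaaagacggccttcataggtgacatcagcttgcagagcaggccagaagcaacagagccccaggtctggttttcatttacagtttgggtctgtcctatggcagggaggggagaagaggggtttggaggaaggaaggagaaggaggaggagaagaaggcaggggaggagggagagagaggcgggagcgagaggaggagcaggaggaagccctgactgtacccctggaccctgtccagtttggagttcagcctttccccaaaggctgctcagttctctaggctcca
Col1a2 has 2 CCAAT matches, Col3a1 has 1 TATAAA and 1 GGAATG match, and Col6a3 has none of the 4. Of the 31 risen genes 21 had a window in the RefSeq table, and 5 of these 21 held CCAAT, 3 TATAAA, 1 TGANTCA and 4 GGAATG. Over all 32851 windows of the same length the shares were 37.4%, 13.6%, 7.8% and 14.7%. A match describes the letters only and says nothing on binding.

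Col1a2 encodes a chain of type I collagen, the main fibril of scar matrix. It had 41.8, 23.3, 43.6 and 33.0 CPM in sh-Acsf3 against 16.5, 10.8, 11.6 and 10.6 CPM in sh-Ctl, and the lowest sh-Acsf3 library lay above the highest sh-Ctl library. It rose by 1.50 ± 0.33 (log2, SE; edgeR adjusted p = 0.0187). Col3a1, the type III collagen that accompanies type I, had 75.1, 39.6, 69.2 and 51.2 CPM in sh-Acsf3 against 25.6, 12.6, 20.0 and 15.5 CPM in sh-Ctl and rose by 1.65 ± 0.34 (edgeR adjusted p = 0.0109), again without overlap. Col6a3, a chain of the microfibril collagen VI, had 14.8, 11.5, 13.8 and 9.82 CPM in sh-Acsf3 against 4.21, 1.20, 2.00 and 1.94 CPM in sh-Ctl. Its rise of 2.32 ± 0.40 (edgeR adjusted p = 0.000475) was the largest of the 9, with groups well apart. Col14a1, a collagen that binds along fibrils, averaged 37.3 ± 5.09 CPM in sh-Acsf3 and 16.2 ± 7.56 CPM in sh-Ctl (SD, n = 4 each).

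Dcn, which encodes the small proteoglycan decorin that coats collagen fibrils, was the most abundant of the risen genes. Its level was 273, 249.7, 255 and 177 CPM in sh-Acsf3 against 86.4, 107, 146 and 120.0 CPM in sh-Ctl. All 4 sh-Acsf3 libraries were higher, and the gene rose by 1.06 ± 0.15 (log2, SE; edgeR adjusted p = 1.23e-05). Over the day the sh-Ctl mean of Dcn was lowest at ZT9, at 115 CPM against 123 to 177 CPM at the other times, while the sh-Acsf3 mean lay between 238 and 278 CPM at all 8 times. Bgn, the related proteoglycan biglycan, averaged 43.1 ± 1.95 CPM in sh-Acsf3 and 24.2 ± 3.61 CPM in sh-Ctl. Sparc, a collagen-binding matricellular protein, averaged 99.1 ± 16.2 CPM in sh-Acsf3 and 56.3 ± 4.40 CPM in sh-Ctl (SD, n = 4 each), and neither gene overlapped between groups. Reln, a secreted glycoprotein that stellate cells make in liver, averaged 19.7 ± 3.12 CPM in sh-Acsf3 and 9.26 ± 4.40 CPM in sh-Ctl. Colec11, a soluble lectin, averaged 32.1 ± 6.63 CPM in sh-Acsf3 and 16.8 ± 4.15 CPM in sh-Ctl. In edgeR these 4 rose by 0.85 ± 0.20, 0.81 ± 0.19, 1.12 ± 0.25 and 0.93 ± 0.21 (log2, SE), with adjusted p between 0.0192 and 0.0241.

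How firm each call of the stellate list is differed. Dcn and Col6a3 passed with any single ZT9 library left out, and Col14a1 missed the threshold only without sh-Ctl replicate 1 (edgeR adjusted p = 0.0545). Col3a1 missed it without sh-Acsf3 replicate 1 or 3 or sh-Ctl replicate 2 (edgeR adjusted p up to 0.0666), and Col1a2 without those or sh-Ctl replicate 3 or 4 (up to 0.0889). Reln missed it without sh-Acsf3 replicate 1 or sh-Ctl replicate 1 or 2 (up to 0.287), and Colec11 without those or sh-Acsf3 replicate 4 (up to 0.268). Bgn missed it without sh-Acsf3 replicate 1 or 3 or sh-Ctl replicate 1, 2 or 3 (edgeR adjusted p up to 0.179), and Sparc without any library but sh-Acsf3 replicate 2 or sh-Ctl replicate 3 (up to 0.12). The list held 5 rises without the Saa1-high sh-Ctl replicate 1, 5 without sh-Acsf3 replicate 3, 3 without sh-Acsf3 replicate 1 or without sh-Ctl replicate 2, and 2 without both the Saa1-high and the pancreas-bearing library. With no gene filter it held 14. Its median stayed between 0.98 and 1.30 in these fits and with each other scaling. The 18 markers that did not pass ran from -1.07 to 1.80 (log2), and the genes at these ends are named after their values were seen. Acta2, the smooth muscle actin of activated stellate cells, had 2.28, 1.21, 4.40 and 6.32 CPM in sh-Acsf3 against 14.6, 5.39, 4.01 and 2.42 CPM in sh-Ctl, with overlap (edgeR adjusted p = 0.755). Col1a1, the partner chain of Col1a2, had 25.3, 15.7, 30.5 and 18.2 CPM in sh-Acsf3 against 12.9, 4.79, 4.41 and 2.42 CPM in sh-Ctl, without overlap (edgeR adjusted p = 0.0754).

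Igfbp3, Igfbp7, Olfml3, Adamts2, Adamtsl2, Ccn2, Pmepa1 and Gdf10 also rose. They belong to none of the lists and are described together for convenience, so they give no count for any class of genes. Igfbp3, a carrier of insulin-like growth factors, had 39.3, 25.4, 30.1 and 37.9 CPM in sh-Acsf3 against 8.09, 11.4, 13.6 and 9.19 CPM in sh-Ctl. It rose by 1.64 ± 0.30 (log2, SE; edgeR adjusted p = 0.00171), without overlap and without any single library deciding the call. The mean difference at the other 7 times was 0.67, and that pair of values did not pass the test against each other (edgeR adjusted p = 0.866). Olfml3, a secreted olfactomedin-domain protein, had 8.25, 6.95, 8.81 and 7.72 CPM in sh-Acsf3 against 0.971, 1.80, 2.40 and 2.42 CPM in sh-Ctl. The sh-Acsf3 libraries lie within a narrow band above all sh-Ctl libraries, and the rise was 2.10 ± 0.39 (edgeR adjusted p = 0.00171).

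Ccn2, connective tissue growth factor, a matricellular protein induced by TGF-beta and YAP, had 7.40, 3.02, 3.80 and 5.61 CPM in sh-Acsf3 against 0.647, 0.599, 2.40 and 0.484 CPM in sh-Ctl. The groups did not overlap, though the nearest libraries lie close, and the rise was 2.13 ± 0.52 (log2, SE; edgeR adjusted p = 0.0406). That call was lost without sh-Acsf3 replicate 1, 3 or 4 or sh-Ctl replicate 1, 2 or 4 (edgeR adjusted p up to 0.28), and it rests on 69 UMIs in sh-Acsf3 and 10 in sh-Ctl. Adamts2, the protease that trims procollagen, rose by 2.13 ± 0.46, and Adamtsl2, a secreted protein that binds latent TGF-beta binding proteins, by 1.87 ± 0.44. Pmepa1, a TGF-beta target that restrains SMAD signalling, rose by 1.44 ± 0.32, Gdf10, a ligand of the TGF-beta superfamily, by 1.28 ± 0.27 and Igfbp7 by 0.78 ± 0.18. In edgeR the adjusted p of these 5 lay between 0.01 and 0.0285. Each was lost without sh-Ctl replicate 1. Adamts2 was lost also without sh-Ctl replicate 3, Gdf10 without sh-Acsf3 replicate 1, Adamtsl2 and Pmepa1 without sh-Acsf3 replicate 3 or sh-Ctl replicate 2 or 4, and Igfbp7 without sh-Acsf3 replicate 1 or 3 or sh-Ctl replicate 2. The highest edgeR adjusted p among these fits was 0.273, for Igfbp7. Of these 5 genes Igfbp7, the most abundant, averaged 189.8 ± 40.8 CPM in sh-Acsf3 and 111 ± 33.6 CPM in sh-Ctl (SD, n = 4 each).

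Tcf21, Abcc9, Gucy1a1, Bicc1 and Tceal9, which lie outside the lists too, were further single genes that rose. Tcf21, a bHLH factor of mesenchymal cells, averaged 8.69 ± 4.26 CPM in sh-Acsf3 and 3.72 ± 2.21 CPM in sh-Ctl (SD, n = 4 each), with overlap. Abcc9, the regulatory subunit of a vascular potassium channel, averaged 9.28 ± 1.62 CPM in sh-Acsf3 and 3.71 ± 1.33 CPM in sh-Ctl, without overlap. Gucy1a1, a subunit of the nitric oxide receptor, averaged 6.79 ± 1.95 CPM in sh-Acsf3 and 2.88 ± 0.333 CPM in sh-Ctl, also without overlap. Bicc1, an RNA-binding protein, averaged 11.0 ± 4.10 CPM in sh-Acsf3 and 4.20 ± 2.75 CPM in sh-Ctl, with overlap. Their rises were 1.28 ± 0.31, 1.28 ± 0.31, 1.18 ± 0.28 and 1.37 ± 0.32 (log2, SE), with edgeR adjusted p between 0.0285 and 0.0405. Each of these 4 calls was lost without sh-Acsf3 replicate 3 and without sh-Ctl replicate 2 (edgeR adjusted p up to 0.294). Further losses came without sh-Acsf3 replicate 1 or sh-Ctl replicate 1 or 4 for Tcf21, without any other library but sh-Acsf3 replicate 4 for Abcc9, without sh-Acsf3 replicate 4 or any sh-Ctl library for Gucy1a1, and without sh-Acsf3 replicate 1 or 2 or sh-Ctl replicate 3 for Bicc1. Tceal9 rose by 0.88 ± 0.19 (edgeR adjusted p = 0.0113), a call lost without sh-Acsf3 replicate 1 or sh-Ctl replicate 1 (up to 0.14).

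Of the endothelial markers all 20 listed were tested, none passed, and their median was -0.05, which turned to 0.14 when libraries were scaled by their totals alone, where the median over all genes was itself 0.19. Their summed level was 325 to 420.5 CPM in sh-Acsf3 and 324 to 445 CPM in sh-Ctl. Vcam1, an adhesion molecule for leukocytes that sinusoidal endothelium and stellate cells can make, is not in that list. It had 12.8, 12.4, 12.9 and 9.12 CPM in sh-Acsf3 against 1.29, 4.79, 2.40 and 1.94 CPM in sh-Ctl, the groups far apart. The rise of 2.32 ± 0.35 (log2, SE; edgeR adjusted p = 1.52e-05) passed with any single library left out.

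Ccl5, Trbc2, Gzma and Nkg7 rose among the listed T and NK cell markers, most of them at a low level, while 0.307% of all tested genes rose. Of 26 listed markers only 8 passed the filter on low counts, which a gene can pass through the sh-Acsf3 libraries alone, so the share of these 8 that rose describes the tested genes and not the list. Their median was 2.64 (log2), against 1.93 with no gene filter and 2.01 with a mean of at least 5 CPM. The summed level of the list was 90.8, 76.2, 93.7 and 73.0 CPM in sh-Acsf3, against 18.5, 35.9, 18.0 and 21.3 CPM in sh-Ctl. Every sh-Acsf3 sum lay above every sh-Ctl sum, and of the defining markers only Ncr1 had no UMI in sh-Ctl, with none at 0 in sh-Acsf3. Ccl5, a chemokine of activated T and NK cells, had 31.6, 23.9, 25.8 and 21.1 CPM in sh-Acsf3 against 1.29, 7.19, 2.81 and 2.90 CPM in sh-Ctl. It rose by 3.00 ± 0.40 (log2, SE; edgeR adjusted p = 8.48e-06), the smallest p of the comparison, without overlap and without any single library deciding it. It was also the one gene of the 36 called at all 7 other times.

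Trbc2, the constant region of the T cell receptor beta chain, had 5.69, 4.84, 7.59 and 2.81 CPM in sh-Acsf3 against 0.324, 1.20, 0.401 and 0.484 CPM in sh-Ctl. That is 90 UMIs against 5, without overlap, and the rise of 3.30 ± 0.63 (log2, SE; edgeR adjusted p = 0.0028) passed with any single library left out. Gzma, the cytotoxic protease granzyme A, had 3.70, 2.72, 5.47 and 1.40 CPM in sh-Acsf3 against 0, 0, 0 and 1.45 CPM in sh-Ctl. The 60 UMIs in sh-Acsf3 and 3 in sh-Ctl give a ratio of 12.5 with an exact 95% interval for counting error of 4.10 to 62.6, the lowest sh-Acsf3 library lay just below the highest sh-Ctl library, and the edgeR adjusted p was 0.0377. Nkg7, a granule protein of cytotoxic lymphocytes, averaged 3.49 ± 1.74 CPM in sh-Acsf3 and 0.853 ± 0.747 CPM in sh-Ctl (SD, n = 4 each; edgeR adjusted p = 0.0434), with overlap. The Gzma and Nkg7 calls were lost without sh-Acsf3 replicate 1 or 3 and without sh-Ctl replicate 1 or 3, with Gzma also without sh-Ctl replicate 2 and Nkg7 without sh-Ctl replicate 4 (edgeR adjusted p up to 0.268). Without sh-Ctl replicate 1 the list held 2 rises, as it did without sh-Acsf3 replicate 1 or 3 or sh-Ctl replicate 3. It held 1 without both sh-Ctl replicate 1 and sh-Acsf3 replicate 3. DESeq2 and limma-voom each gave 2, a mean of at least 5 CPM 1, and no gene filter 8.

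MHC class II genes, whose products show peptides to helper T cells, gave high values that did not pass. Of 13 listed, 8 were tested and none passed. All 8 differences were above 0, with a median of 1.23 (log2). In 5 of the 8 all sh-Acsf3 libraries lay above all sh-Ctl libraries, against 3.02% of all tested genes. A gene can pass the filter on low counts through the sh-Acsf3 libraries alone, so these counts describe the tested genes and not the list. Cd74, the invariant chain, had 80.8, 92.5, 114 and 88.4 CPM in sh-Acsf3 against 18.8, 49.1, 32.9 and 34.4 CPM in sh-Ctl, a difference of 1.51 ± 0.47 (edgeR adjusted p = 0.211). H2-Aa averaged 79.2 ± 6.41 CPM in sh-Acsf3 and 34.9 ± 21.1 CPM in sh-Ctl (SD, n = 4 each). In the fit on the 8 ZT9 libraries alone 4 of these genes passed, and 3 with a replicate block added. With no gene filter 5 passed.

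Macrophage markers held a single rise. Of 20 listed 18 were tested, 1 rose, against 0.307% of all tested genes, and the median was 0.34 (5 rose with no gene filter). Mmp12, the macrophage elastase, had 2.84, 4.53, 8.96 and 2.11 CPM in sh-Acsf3 against 0.324, 0, 0.401 and 0.484 CPM in sh-Ctl. No sh-Ctl library reached the lowest sh-Acsf3 library, and the 87 UMIs against 3 give a ratio of 18.2 with an exact 95% counting interval of 6.03 to 90.0. The edgeR adjusted p of 0.00427 became 0.0925 without sh-Acsf3 replicate 3. C1qc, a complement chain made by Kupffer cells, averaged 53.0 ± 6.06 CPM in sh-Acsf3 and 35.1 ± 4.26 CPM in sh-Ctl (SD, n = 4 each) and did not pass (edgeR adjusted p = 0.496). Sirpa, the receptor on myeloid cells for CD47, which lies outside the lists, rose by 1.08 ± 0.26 (log2, SE; edgeR adjusted p = 0.0406), with 20.8, 19.3, 23.2 and 22.5 CPM in sh-Acsf3 against 9.71, 13.8, 10.4 and 7.26 CPM in sh-Ctl. The groups were apart, but the call was lost without sh-Acsf3 replicate 1, 3 or 4 or sh-Ctl replicate 1, 3 or 4 (up to 0.183).

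H2-M2, a non-classical MHC class I gene outside the lists, was found in sh-Acsf3 alone at this time. It had 1.99, 3.33, 3.34 and 0.702 CPM in sh-Acsf3, from 41 UMIs, and no UMI in any of the 4 sh-Ctl libraries. Against the level that 3 UMIs over the sh-Ctl group would give, it was at least 8.58-fold higher (edgeR adjusted p = 0.00615, and 0.05 without sh-Ctl replicate 1). Among the 20 listed class I genes, 18 were tested and none passed, with a median of 0.03.

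Ccnd1, which encodes cyclin D1, the switch into the cell cycle that hepatocytes induce on growth signals, had 118, 85.2, 212 and 123 CPM in sh-Acsf3 against 36.6, 54.5, 30.5 and 63.9 CPM in sh-Ctl. No sh-Ctl library reached the lowest sh-Acsf3 library, and sh-Acsf3 replicate 3, the pancreas-bearing library, was the highest. The rise was 1.56 ± 0.30 (log2, SE; edgeR adjusted p = 0.00291), and 1.24 without that library (edgeR adjusted p = 0.067). Of the 30 listed cell cycle genes 25 were tested and Ccnd1 alone passed, with a median of 0.30, while 0.307% of all tested genes rose. Cenpa, a centromere histone, averaged 12.7 CPM in sh-Acsf3 and 8.74 CPM in sh-Ctl and did not pass (edgeR adjusted p = 0.578).

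The 4 falls besides Acsf3 were Dct, Dnajc12, Pls3 and Psmc1. Dct, the dopachrome tautomerase of the melanin pathway, had 4.27, 2.42, 3.64 and 4.21 CPM in sh-Acsf3 against 11.3, 15.0, 8.82 and 7.26 CPM in sh-Ctl, without overlap, and fell by 1.54 ± 0.35 (log2, SE; edgeR adjusted p = 0.0192). The call was lost without sh-Acsf3 replicate 2 or 3 or sh-Ctl replicate 1 or 2 (edgeR adjusted p up to 0.135). Dnajc12, a co-chaperone of the aromatic amino acid hydroxylases, had 15.6, 18.4, 20.5 and 21.8 CPM in sh-Acsf3 against 166, 16.8, 22.4 and 24.7 CPM in sh-Ctl. Its fall of 1.65 ± 0.40 (edgeR adjusted p = 0.0398) rests on the Saa1-high library, and without it the difference was -0.18 with an edgeR adjusted p of 0.959. Psmc1, an ATPase of the proteasome cap, had 40.1, 42.0, 45.2 and 40.0 CPM in sh-Acsf3 against 71.2, 62.9, 53.7 and 50.3 CPM in sh-Ctl and fell by 0.51 ± 0.12 (edgeR adjusted p = 0.0398), without overlap. Pls3, an actin-bundling protein, fell by 0.62 ± 0.15 (edgeR adjusted p = 0.0445). The Dnajc12, Psmc1 and Pls3 calls were each lost without any 1 of the 4 sh-Acsf3 libraries, Psmc1 also without sh-Ctl replicate 1 or 2 and Pls3 without sh-Ctl replicate 1 or 4 (edgeR adjusted p up to 0.439 for Pls3). All 31 listed proteasome genes were tested, 29 lay below 0, Psmc1 alone passed, and the median of -0.18 became 0.01 with library size only. Over all tested genes 0.0495% fell past the threshold.

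The library that stood apart in sh-Ctl did so across the acute-phase list. Saa1, serum amyloid A, which hepatocytes make on interleukin-6 signals, had 62.6, 30.8, 125 and 34.4 CPM in sh-Acsf3 against 3604, 45.5, 23.2 and 22.3 CPM in sh-Ctl, so a single sh-Ctl library holds nearly all of it. Haptoglobin (Hp) had 1129, 1213, 1509 and 1346 CPM in sh-Acsf3 against 5093, 2026, 1431 and 1714 CPM in sh-Ctl, again highest in that library. All 31 listed acute-phase genes were tested and none passed, though 16 were past the threshold downward with no gene filter. Their median was -0.59 (log2) with sh-Ctl replicate 1 and 0.05 without it, and the Saa1 difference was -3.83 ± 1.42 with it and 1.13 without it. The summed list was 20490 to 26120 CPM in sh-Acsf3, against 65550 CPM in sh-Ctl replicate 1 and 22150 to 26360 CPM in the other sh-Ctl libraries. Without this library 15 genes passed in all, 13 of them among the 36, and its part in the lost calls was not tested further.

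Major urinary protein genes, male-biased hepatocyte transcripts under growth hormone control, lay low in sh-Acsf3 without passing. Of 22 listed 14 were tested, none passed and all 14 were below 0, with a median of -1.56 (log2). Of the 14, 9 were free of overlap with sh-Acsf3 lower, against 2.2% of all tested genes. With no gene filter 8 passed, and 1 did in DESeq2 and in the fit on ZT9 alone. Mup11 had 1458, 4789, 775 and 1622 CPM in sh-Acsf3 against 15773, 6640.4, 7057 and 13947 CPM in sh-Ctl, a difference of -2.33 ± 0.74 (edgeR adjusted p = 0.241). Mup12 averaged 78.8 ± 43.0 CPM in sh-Acsf3 and 295 ± 44.0 CPM in sh-Ctl (SD, n = 4 each; edgeR adjusted p = 0.0944). The libraries of 1 group differ several-fold in Mup11, and Mup genes are near copies that can share reads. Cyp2c40, a cytochrome P450, averaged 2.66 ± 1.45 CPM in sh-Acsf3 and 15.5 ± 2.42 CPM in sh-Ctl, without overlap, and did not pass (-2.65 ± 0.70, edgeR adjusted p = 0.0812).

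Of 19 listed core clock genes 18 were tested, none of these passed at ZT9, and the median was 0.12. With no gene filter 1 passed, higher in sh-Acsf3. Dbp, the PAR bZIP output factor, had 184, 149.6, 133 and 232 CPM in sh-Acsf3 against 153, 220.4, 183 and 195 CPM in sh-Ctl, with overlap, and its mean was at the highest of 8 times in both. Arntl, the clock activator, was at its lowest of 8 times in both, with means of 0.744 CPM in sh-Acsf3 and 0.593 CPM in sh-Ctl, as was Cry1, a repressor, at 2.22 CPM in sh-Acsf3 and 2.37 CPM in sh-Ctl. Nr1d1, the repressor REV-ERB alpha, averaged 26.4 ± 3.37 CPM in sh-Acsf3 and 36.5 ± 15.9 CPM in sh-Ctl (SD, n = 4 each), and its mean was highest at ZT6 in sh-Acsf3 and at ZT9 in sh-Ctl. Per1, a light-phase repressor, had the largest difference of the list, with 13.7, 9.07, 9.26 and 26.0 CPM in sh-Acsf3 against 2.91, 7.19, 5.61 and 12.1 CPM in sh-Ctl (0.99 ± 0.37, edgeR adjusted p = 0.349), and its groups overlapped.

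Transcripts of the mitochondrial genome took a smaller share of counts in sh-Acsf3. The share was 16.8%, 17.8%, 16.8% and 18.6% in sh-Acsf3 against 20.2%, 20.4%, 19.5% and 21.5% in sh-Ctl, without overlap. For the mRNAs alone it was 3.60%, 3.49%, 3.76% and 4.02% in sh-Acsf3 against 4.93%, 5.37%, 4.49% and 4.73% in sh-Ctl. Of the 13 mRNAs 7 were tested, none passed and all 7 lay below 0. Of the 7, 5 were free of overlap with sh-Acsf3 lower, against 2.2% of all tested genes. The median was -0.60 (log2), or -0.41 with library size only beside 0.19 over all genes, and over the other 7 times it was 0.02. No tested mitochondrial transcript passed the test of ZT9 against the other times (edgeR, smallest adjusted p = 0.866). For mt-Nd2, a complex I subunit, the levels were 5529, 7213, 6749.8 and 7831 CPM in sh-Acsf3 against 11321, 12342, 9115 and 10555 CPM in sh-Ctl (-0.67 ± 0.18, edgeR adjusted p = 0.0754). In the fit on ZT9 alone 4 of the 7 passed, 0 when a replicate block was added to it, and 3 passed with no gene filter. Nuclear genes of the respiratory chain gave a median of -0.14 over 74 tested members, none of which passed. That median turned to 0.05 with library size only. Of the 74, 12 were free of overlap with sh-Acsf3 lower, beside the same 2.2% of all tested genes. Leaving the mitochondrial genes out of the counts gave the same 36 calls.

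**Figure D4:**
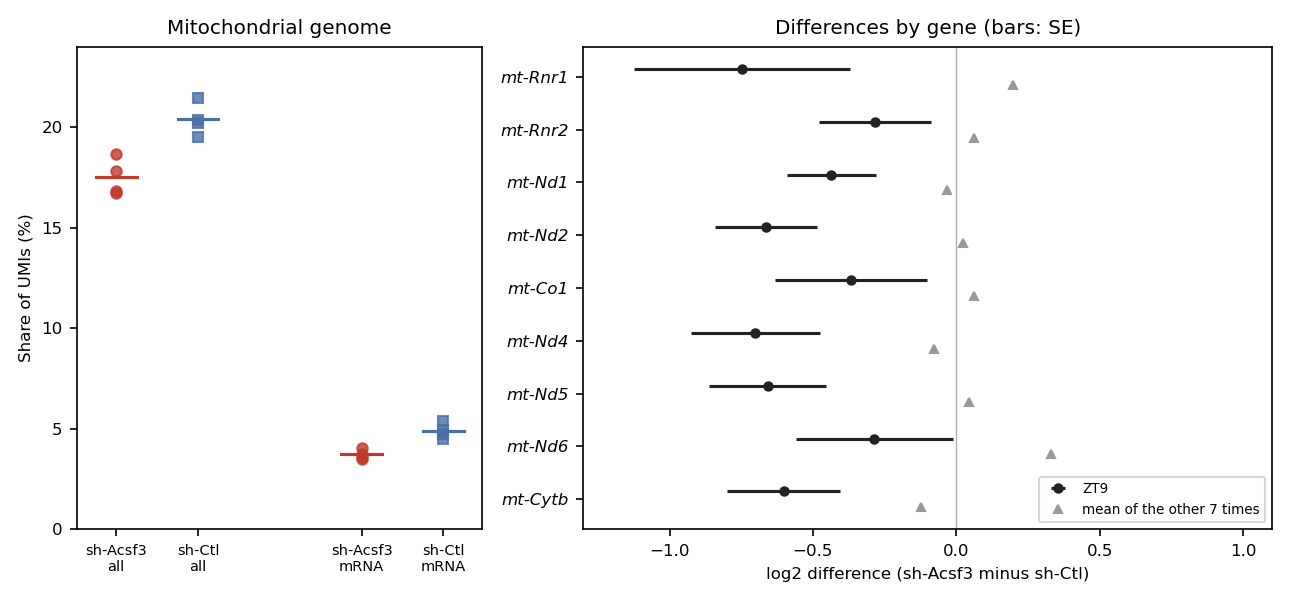
Left, share of UMIs (%) from the mitochondrial genome and from its mRNAs, a point per library and a line at each group mean, sh-Acsf3 in red left of sh-Ctl in blue. Right, log2 difference (sh-Acsf3 minus sh-Ctl) of 9 mitochondrial transcripts, with black points and SE bars at ZT9 and grey triangles for the mean of the other 7 times. All 9 lie below 0 at ZT9, and none passed the test of ZT9 against the other times.

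No other list had a member past the threshold. In all 49 of the 55 lists held none, among them fatty acid oxidation, with 21 tested and a median of 0.07, and ketone body synthesis, with 7 tested and a median of 0.11. The 27 tested lipogenesis genes had a median of -0.03, the 23 tested gluconeogenesis genes -0.06, the 14 tested urea cycle genes -0.06 and the 22 tested bile acid genes -0.18. The 29 tested interferon-stimulated genes had a median of 0.16 and the 24 tested chaperone genes of the unfolded protein response -0.12. These medians lie between -0.18 and 0.16, beside -0.004 over all genes. Other lists without a call lay farther from 0. Medians were 0.62 for 9 tested monocyte and neutrophil genes, 0.53 for 8 B and plasma cell genes and 0.42 for 13 immediate early genes. They were 0.27 for 8 cholangiocyte genes, -0.48 for 5 red blood cell genes and -0.24 for 27 male-biased genes. The 18 pancreas genes, high in sh-Acsf3 replicate 3, had 2.545. The monocyte and neutrophil list held 16 genes and the B and plasma cell list 17. A gene can pass the filter on low counts through the sh-Acsf3 libraries alone, so their medians describe the tested genes only. The summed B and plasma cell level was 393 to 561 CPM in sh-Acsf3 and 474 to 716 CPM in sh-Ctl. For the monocyte and neutrophil list it was 68.8 to 102 CPM in sh-Acsf3 and 38.5 to 158 CPM in sh-Ctl. A p that misses the threshold does not show that the genes did not differ.

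The calls at ZT9 were set against the other 7 times in the same fit. All 36 had the sign of the mean difference at the other times, 34 had it at each of the 7, and 33 also passed on that mean, where 1335 genes did. At single times 52 genes passed at ZT0, 7 at ZT3, 22 at ZT6, 141 at ZT12, 3 at ZT15, 17 at ZT18 and 32 at ZT21. Of the 36, 8 passed at no other single time, namely Dnajc12, Pls3, Psmc1, Colec11, Gucy1a1, Tcf21, Ccn2 and Gzma. In 32 of the 36 the difference was larger in size at ZT9 than over the other times, yet no gene of 10097 (0%) passed the test of that difference itself in edgeR, where the smallest adjusted p was 0.866 and 581 genes had an unadjusted p under 0.05. DESeq2 and limma-voom also gave 0, while 63 genes passed with no gene filter.

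**Figure D5:**
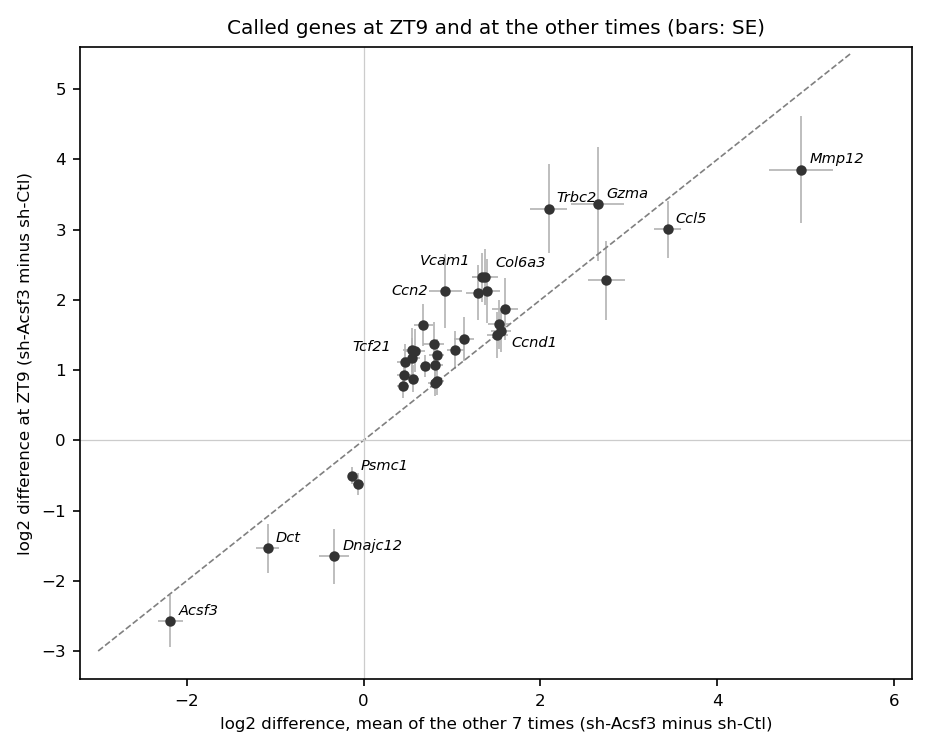
Log2 difference (sh-Acsf3 minus sh-Ctl) at ZT9 against the mean over the other 7 times for 35 of the 36 called genes, with SE bars and a dashed line of equality. H2-M2 is left out because it had no UMI in sh-Ctl at ZT9. All points share their sign in both, and most lie farther from 0 at ZT9, where they were chosen.

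The genes nearest to a difference from the other times were Zfp839 and Tmem68, neither of which passed. Tmem68, an acyltransferase-like membrane protein, had 5.40, 5.14, 5.92 and 2.81 CPM in sh-Acsf3 against 1.29, 2.40, 1.60 and 1.94 CPM in sh-Ctl. Its difference was 1.54 ± 0.41 at ZT9 and -0.12 at the other times (edgeR adjusted p for the contrast 0.866). Nmnat1, a nuclear enzyme of NAD synthesis, had 16.2, 14.8, 14.1 and 17.5 CPM in sh-Acsf3 against 10.0, 12.0, 8.82 and 6.29 CPM in sh-Ctl, without overlap. It gave 0.74 ± 0.19 at ZT9 and 0.05 at the other times (edgeR adjusted p for the contrast 0.866). Mat2a, the S-adenosylmethionine synthase of non-hepatocyte and growing cells, gave 0.49 ± 0.19 and -0.19.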

How the data were processed

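BRB-seq UMI counts per gene were deposited by the authors as raw counts, aligned with STAR to GRCm38/mm10 per the submitters' processing notes; a STAR version and other settings are not given in the sources used here. Each deposited column was mapped to its sample by name. Members and gene lists were chosen with earlier results of these data known. In edgeR 4.0.16 (R 4.3.3), 10097 of 55487 genes passed the filter on low counts, libraries were TMM-scaled, and a quasi-likelihood model over all 64 libraries gave the ZT9 contrast, with Benjamini-Hochberg adjustment over all tested genes and 48 residual degrees of freedom. The step was tested on simulated data. Means and SDs are over 4 libraries. Replicates were compared by chi-square of their counts, and none agreed within sampling noise (lowest chi-square per degree of freedom 5.35). Genes named by rule were the 15 largest rises and falls among genes past the threshold with a mean of at least 5 CPM, up to 4 per list by smallest p, the clock, malonyl-CoA and acute-phase lists, and the 10 smallest p for ZT9 against the other times. All other called genes were named after their values were seen. Alternatives used DESeq2 1.42.0 and limma 3.58.1. Counting intervals cover counting error only. Positions are from GENCODE M21 and promoters from RefSeq.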

Additional observations from a re-analysis of the deposited data

Results flagged for a closer look

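For 15 of 138 groups of 4 libraries, a single library stood apart, with a gap to its nearest neighbour, as a share of the group's range, above Dixon's 95% critical value. Chance flags about 1 in 20 groups, and genes of 1 library are not independent. The sh-Ctl replicate 1 library was the high one for Saa1 (3604 CPM, others 22.3 to 45.5), Hp (5093 CPM, others 1431 to 2026), Dnajc12 (166 CPM, others 16.8 to 24.7), Col1a2 (16.5 CPM, others 10.6 to 11.6) and the summed acute-phase list (65550 CPM, others 22150 to 26360). In sh-Acsf3 replicate 3 the summed pancreas list was high, at 260.1 CPM against 12.5 to 16.8 CPM.

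The sh-Acsf3 replicate 2 library was low in Sparc (75.0 CPM, others 106 to 109), in Cenpa (10.6 CPM, others 13.3 to 13.7) and in the summed endothelial list (325 CPM, others 408 to 420.5). Col14a1 was high in sh-Acsf3 replicate 1 (44.9 CPM, others 34.5 to 35.1), and Vcam1 was low in sh-Acsf3 replicate 4 (9.12 CPM, others 12.4 to 12.9). In sh-Ctl replicate 3, Ccn2 (2.40 CPM, others 0.484 to 0.647), Sirt5 (14.0 CPM, others 5.83 to 7.19) and the summed stellate list (460.4 CPM, others 361 to 371) were high. Gzma had UMIs in sh-Ctl replicate 4 alone of its group (1.45 CPM).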

How the results depend on the processing

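The main count was 36 genes past the threshold, 31 higher and 5 lower in sh-Acsf3. It was 66 (63 higher, 3 lower) with library size only, where the median of all genes moved from -0.004 to 0.19, 213 (142 higher, 71 lower) with no gene filter, and 18 (17 higher, 1 lower) with limma-voom. DESeq2 gave 39 (31 shared), RLE size factors 38 (36 shared) and a mean of at least 5 CPM 32 (27 shared). The fit on ZT9 alone gave 51 with 10 lower, and 23 were shared. Leaving out 1 library gave 15 to 32 in all, 14 to 31 higher and 1 to 7 lower. Without sh-Ctl replicate 1 there were 15, without sh-Acsf3 replicate 3 15, and without sh-Acsf3 replicate 1 18. Without sh-Acsf3 replicate 4 there were 32 (28 shared). Without both sh-Ctl replicate 1 and sh-Acsf3 replicate 3, an alternative chosen after seeing the data, 5 remained (4 higher, 1 lower): Acsf3, Ccl5, Col6a3, Dcn and Vcam1. These 5 passed under all 19 alternatives. For ZT9 against the other times, 63 genes passed with no gene filter and 0 as reported, and the cause was not tested. None of the 36 called genes changed sign under these alternatives, but uncalled values did. The acute-phase median was -0.59, and 0.05 without sh-Ctl replicate 1. With library size only the endothelial median turned from -0.05 to 0.14, the proteasome median from -0.18 to 0.01, the respiratory chain median from -0.14 to 0.05 and the coagulation and complement median from -0.16 to 0.04. A replicate block gave 51 genes (43 higher, 8 lower), and 31 (23 higher, 8 lower) with ZT9 alone. The replicate numbers did not pair the libraries: same-numbered deviations correlated between -0.09 and 0.02, and not every library correlated best with its own number. Depth limits genes near 1 CPM, where a library holds a few UMIs.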
